A study of Macaca mulatta with 38 samples.

Results

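The genes described here are the nuclear genes for the subunits of the mitochondrial respiratory chain and ATP synthase, in cultures of fetal rhesus macaque (Macaca mulatta) cortical neural stem cells. They were chosen by symbol alone, with no use of their values: the numbered NDUFA, NDUFB, NDUFC, NDUFS and NDUFV genes, SDHA to SDHD, the UQCR genes, the lettered COX genes and the ATP5 genes. Of the 34619 genes in the deposited count table, 72 carried such a symbol: 36 of complex I, 4 of complex II, 4 of complex III, 10 of complex IV and 18 of ATP synthase (complex V). NDUFA4 was counted with complex IV, to which its protein is now assigned. ATP5IF1, which encodes the inhibitory factor of ATP synthase, was counted with complex V. In all, 69 of the 72 had enough reads to be tested, among 20794 genes tested, and the other 3 were COX6A2, COX6B2 and COX7B2. Several subunits known in other mammals carry no such symbol in the table and were not analysed here.

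There were 38 RNA-seq libraries in 4 culture series, 1 library per series and day in vitro. E77 Frontal and E77 Occipital each had 10 libraries, from days 1, 3, 5, 6, 7, 8, 11, 14, 17 and 20, and E42 Anterior and E42 Posterior each had 9, from the same days up to day 17. E77 and E42 are the embryonic ages at which fetal cortex was taken, and Frontal, Occipital, Anterior and Posterior are the regions. All cells were wild type, were dissociated with papain and grew at 5% oxygen. They received FGF2, a growth factor that keeps neural stem cells dividing, to day 5 (days 1, 3 and 5, the stem phase). FGF2 was then withdrawn and the medium changed to NeuroBasal with B27 and the neurotrophins BDNF and NT-3 (days 6, 7 and 8, the transition phase, and days 11 to 20, the terminal phase). RNA of each library came from 2 wells. The labels do not say how many fetuses gave the cells, and each series is 1 age and region. Age and region therefore cannot be told apart from fetus, dissection and culture run, and the p-values measure the spread between days within series, which may be technical.

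The respiratory chain passes electrons from NADH, through complex I, and from succinate, through complex II, to ubiquinone, on to complex III, cytochrome c and complex IV, which reduces oxygen. Complexes I, III and IV pump protons across the inner mitochondrial membrane, and ATP synthase uses the returning protons to make ATP. All 4 subunits of complex II and most subunits of the others are encoded in the nucleus, while mitochondrial DNA encodes the remaining core subunits of complexes I, III, IV and V. In brain development, dividing neural stem cells are known to rely strongly on glycolysis, and neurons on oxidative phosphorylation.

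Total counts were 20149635 to 56363300 per library, with a median of 27597365.5. All 10 radial glia markers and all 12 neuron markers had reads in every group of libraries. So did all 8 astrocyte, 8 oligodendrocyte lineage and 10 mesenchymal markers, so detection alone does not tell which cells made up the cultures. The summed level of the neuron markers was 1550 to 3380 CPM (counts scaled to library size and composition) in the stem phase, 3030 to 4930 CPM in the transition phase and 4180 to 6750 CPM in the terminal phase. The summed level of 12 proliferation markers was 1810 to 3120 CPM, 1350 to 2370 CPM and 634 to 1580 CPM in the same 3 phases. E42 Anterior stood apart: its 10 mesenchymal markers, led by the collagen gene COL1A1, summed to 14100 to 40000 CPM, against 57.2 to 375 CPM in the other 3 series. The age differences of the respiratory chain genes are therefore also given without that series, as E77 Occipital against E42 Posterior. Of 6 erythroid markers in the table, 4 to 6 were at 0 in each group, and their sum reached 0.114 CPM at most. The 8 microglia markers summed to 1.78 CPM at most.

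The 69 genes took 0.301 to 0.526% of the counts of a library, with a median of 0.384%. E42 Posterior held the highest shares, 0.526, 0.503 and 0.458% on days 1, 3 and 5, and its later libraries lay between 0.350 and 0.394%. E77 Occipital held the lowest, 0.301% on day 11, and was at 0.404% on day 14. E77 Frontal had 0.435, 0.382 and 0.414% on days 1, 3 and 5, between 0.336 and 0.342% from day 6 to day 14, and 0.388 and 0.424% on days 17 and 20. E42 Anterior moved least, between 0.378 and 0.431% over all its days. In bulk RNA, fewer cells that express a gene and less of its RNA per cell cannot be told apart.

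**Figure D1:**
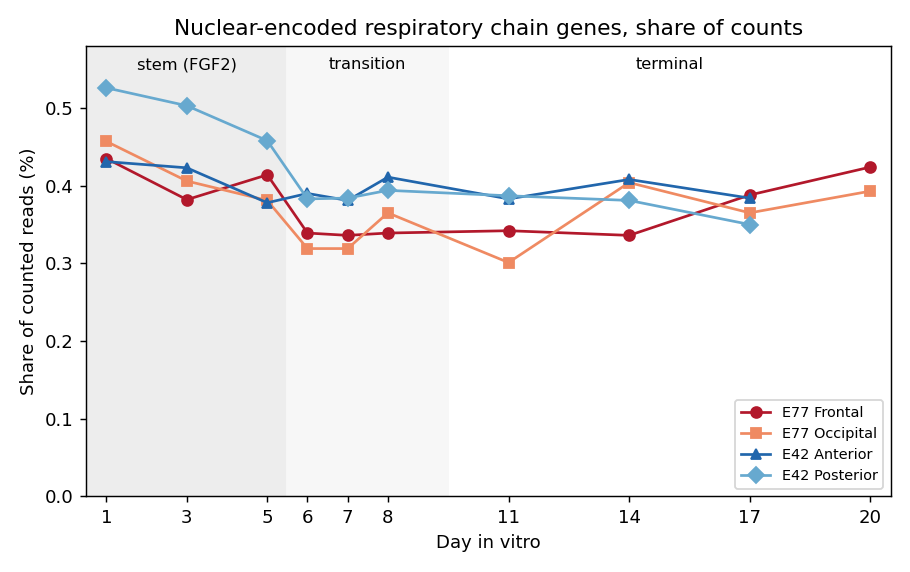
Share of counted reads taken by the 69 tested respiratory chain genes (vertical axis, percent, from 0) by day in vitro (horizontal axis), 1 point per library and 1 line per series. E42 Posterior starts highest, at 0.526% on day 1, and E77 Occipital is lowest, at 0.301% on day 11.

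Levels between genes were compared in the deposited RPKM values (read counts scaled by gene length and library total). The 5 highest members over the 38 libraries were ATP5F1A, at 274 ± 47.1 RPKM (mean ± SD, n = 38), ATP5F1E (208 RPKM), COX6C (200 RPKM), NDUFA4 (174 RPKM) and ATP5F1B (147 RPKM). ATP5F1A and ATP5F1B encode the alpha and beta subunits of the catalytic F1 head of ATP synthase, ATP5F1E its epsilon subunit, and COX6C and NDUFA4 small subunits of complex IV. The 5 lowest tested members were SDHD (8.09 RPKM), NDUFC1 (8.80 RPKM), NDUFB3 (10.1 RPKM), SDHC (14.8 RPKM) and NDUFV3 (17.8 RPKM). SDHD and SDHC are the membrane anchors of complex II, and the other 3 are accessory subunits of complex I. By complex, the median of the members' mean levels was 40.8 RPKM for complex I, 19.0 for complex II, 55.4 for complex III, 120 for complex IV and 69.4 RPKM for complex V. The highest mean of complex II, 23.7 RPKM for the iron-sulphur subunit SDHB, lay below the lowest means of complexes III, IV and V, which were 47.6 RPKM (UQCRH), 63.0 RPKM (COX5A) and 39.9 RPKM (ATP5MC1). Many of these short genes have processed copies in primate genomes, and how reads that match several places were counted is not given in the sources used here, so levels of single genes are uncertain to that extent.

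**Figure D2:**
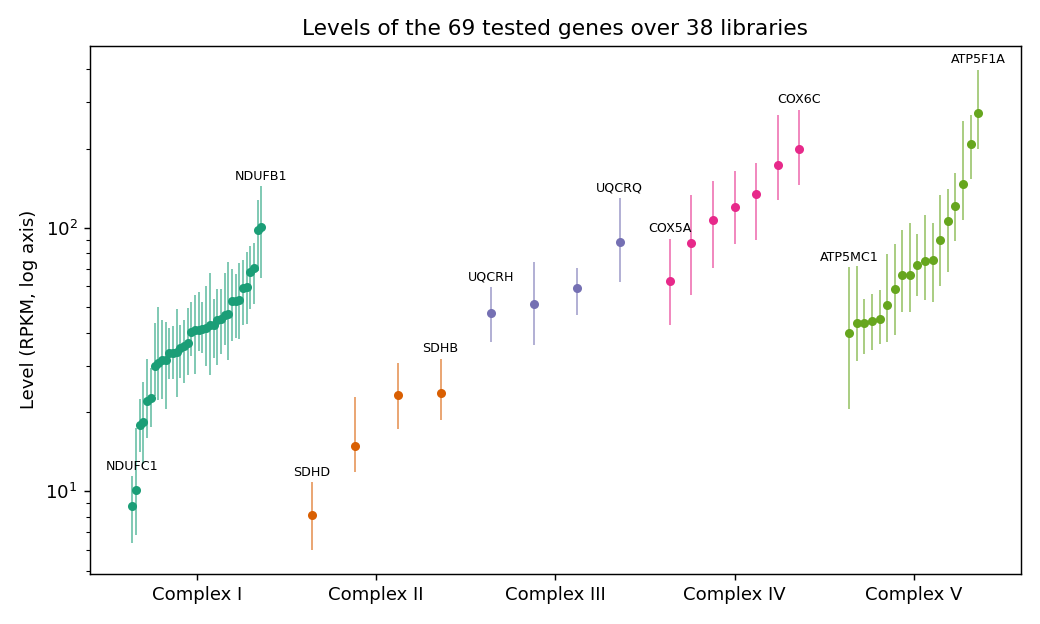
Mean level of each of the 69 tested genes over 38 libraries (points, RPKM, log axis) by complex, with vertical lines from the lowest to the highest library. The genes of complex II lie between 8.09 and 23.7 RPKM and those of complex IV between 63.0 and 200 RPKM.

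At the median, the members varied slightly less across the experiment than other genes, which were not matched to them for level. The ratio of a member's highest to its lowest library had a median of 1.92 over the 69 members, with a range of 1.5 to 3.43, against a median of 2.18 over the 8180 tested genes that were at least as abundant as the lowest member and above 0 in every library. Most members moved together: the Pearson correlation of a member's log2 CPM with the mean of the other members over the 38 libraries had a median of 0.85, and ATP5MG and COX6B1 were highest, at 0.97. The 5 members under 0.5 were SDHD (-0.03), NDUFA5 (0.06), NDUFC2 (0.12), NDUFS1 (0.45) and COX7C (0.48). These correlations describe libraries that share cultures, days and scaling. They were not computed for other genes, so they cannot be set against a background or read as particular to the members. SDHD and NDUFA5, which followed the other members least, are described in their own right below.

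Most members were lower in the phase that follows the withdrawal of FGF2. Between the transition and the stem phase, averaged over the 4 series, 56 of the 69 genes fell and 0 rose (edgeR's quasi-likelihood test, Benjamini-Hochberg adjusted p under 0.05 over all genes tested), against 20% of all tested genes lower and 21.6% higher. By the same criterion all 4 complex II genes fell, all 7 of complex IV, 3 of 4 of complex III, 28 of 36 of complex I and 14 of 18 of ATP synthase. The fitted log2 change was negative for 67 of the 69, with a median of -0.28 against 0.02 over all genes tested. By complex, the median log2 change was -0.26 for complex I, -0.29 for II, -0.31 for III, -0.36 for IV and -0.29 for ATP synthase.

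Among single genes, ATP5F1D, the delta subunit of the F1 head, fell furthest. Its level was 37.6 CPM at the lowest, 51.5 at the median and 60.7 at the highest in the 12 transition libraries, against 63.1, 72.7 and 87.1 CPM in the 12 stem libraries. The groups did not overlap, and the log2 change was -0.56 ± 0.08 (SE; adjusted p = 4.8e-06, edgeR). ATP5MC1, 1 of 3 genes for the membrane ring subunit c of ATP synthase, had 12.1, 21.6 and 26.7 CPM in the transition phase, against 20.4, 27.7 and 44.7 CPM in the stem phase, groups that overlapped (log2 change -0.55 ± 0.12, adjusted p = 0.00061, edgeR). NDUFS8, a core iron-sulphur subunit of complex I, had 21.6, 26 and 32.2 CPM in the transition phase, against 29.9, 36.9 and 46.1 CPM in the stem phase. NDUFS6, an accessory zinc-binding subunit of complex I, had 15.0, 19.5 and 24.0 CPM, against 20.1, 28.4 and 35.7 CPM. Their log2 changes were -0.49 ± 0.07 and -0.53 ± 0.10 (adjusted p = 4.2e-06 and 4.4e-05, edgeR), and both pairs of groups overlapped. In complex II, SDHA, the flavoprotein that oxidises succinate, fell by 0.40 ± 0.05 on the log2 scale, SDHC by 0.33 ± 0.06, SDHD by 0.26 ± 0.07 and SDHB by 0.25 ± 0.07. In complex III, the core subunit UQCRC1 changed by -0.46 ± 0.06 and the small subunit UQCRQ by -0.44 ± 0.07 on the log2 scale, while UQCRH, the acidic hinge protein, did not pass (-0.11 ± 0.06, adjusted p = 0.13, edgeR). In complex IV, COX7C changed by -0.50 ± 0.08 and NDUFA4 by -0.43 ± 0.07 on the log2 scale. With the 4 series averaged to 1 value per day, 32 members fell, and ATP5MC1, SDHB and SDHD did not pass.

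Steps between neighbouring days are given as values, since 1 library a day allows no test. From day 5, the last with FGF2, to day 6, 68 of 69 members were lower in E77 Frontal (median log2 step -0.40), 65 of 69 in E77 Occipital (-0.30) and 68 of 69 in E42 Posterior (-0.31). In E42 Anterior 43 of 69 were lower, with a median step of -0.03, and that series was the exception. Steps of like size also occurred at other times. In E77 Frontal 65 of 69 members were lower on day 3 than on day 1 (-0.26) and 65 were higher on day 5 than on day 3 (0.27), both with FGF2. In E77 Occipital 67 were higher on day 8 than on day 7 (0.28), 66 lower on day 11 than on day 8 (-0.29) and 65 higher on day 14 than on day 11 (0.61). Over all tested genes, 45 to 50.8% were lower in each of the steps named here, with median steps of 0 to 0.03. Between day 5 and day 1, with series and day in 1 fit, 9 members fell and 0 rose, against 6.65% of all tested genes lower and 7.88% higher. Of the 9, 7 were ATP synthase genes: ATP5MC1 (log2 change -0.61 ± 0.15, adjusted p = 0.0051, edgeR), ATP5MD (-0.40 ± 0.11), ATP5MC3 (-0.38 ± 0.09), ATP5F1B, ATP5F1C, ATP5PB and ATP5PD. The other two were NDUFB6, an accessory subunit of complex I (-0.38 ± 0.11), and SDHC (-0.32 ± 0.09). ATP5MC1 had 36.1, 28.1, 43.1 and 44.7 CPM on day 1 and 27.3, 24.8, 20.4 and 25.6 CPM on day 5 in E77 Frontal, E77 Occipital, E42 Anterior and E42 Posterior, lower on day 5 in every series. The number lower on day 5 was 1 in a fit of only the libraries compared and 2 without E42 Posterior day 1. Without the E42 Anterior series NDUFB6 and SDHC did not pass.

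**Figure D3:**
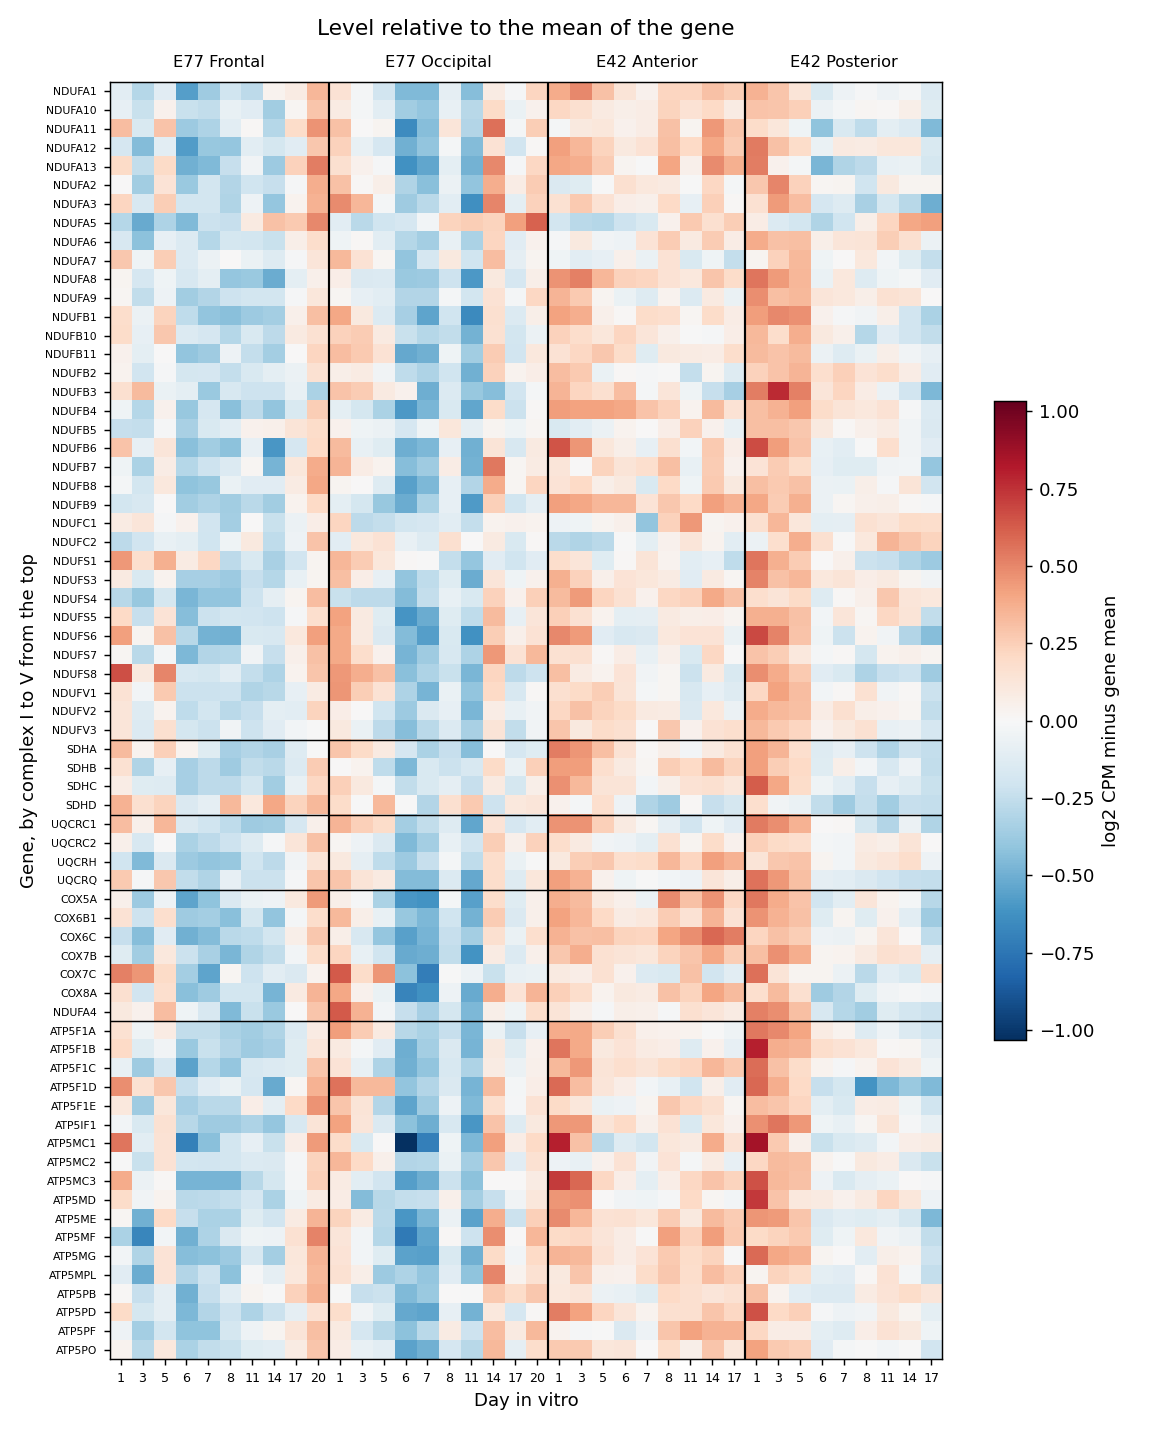
Level of 68 of the 69 tested genes in each of the 38 libraries, as log2 CPM minus the mean of the gene (colour, red above and blue below), with genes grouped by complex and libraries by series and day in vitro. From day 5 to day 6, over all 69, 68 genes are lower in E77 Frontal, 65 in E77 Occipital and 68 in E42 Posterior. Of all tested genes, 50.3, 49.9 and 45% are lower in these steps. NDUFA5 runs against the other rows late in culture.

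Averaged over the 4 series, many members turned upwards in the terminal phase, mainly in the E77 series. Single series were not tested. Median log2 deviations from gene means follow, for days 6, 7 and 8, then from day 11. E77 Frontal had -0.34, -0.27 and -0.25, then -0.18, -0.23, -0.01 and 0.26. E77 Occipital had -0.43, -0.37 and -0.10, then -0.43, 0.19, -0.07 and 0.08. E42 Anterior had 0.08, 0.01 and 0.15, then 0.08, 0.19 and 0.08. E42 Posterior had -0.05, -0.02 and 0.02, then 0.03, -0.02 and -0.18. Between the terminal and the transition phase 26 of the 69 genes rose and 2 fell, against 22.7% of all tested genes higher and 19.2% lower. ATP synthase contributed 10 of 18, complex I 10 of 36, complex IV 4 of 7 and complex III 2 of 4, while 0 of the 4 complex II genes passed (SDHB 0.15 ± 0.06, adjusted p = 0.069, SDHA -0.02 ± 0.05, adjusted p = 0.75, edgeR). The median log2 change was 0.15 over the members and 0.01 over all genes tested. Within ATP synthase, the 13 genes outside the F1 head had a median log2 change of 0.20, of which 8 rose, and the 5 genes of the F1 head a median of 0.05, of which 2 rose.

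NDUFA5, an accessory subunit of the peripheral arm of complex I, rose most between these phases (0.45 ± 0.06, adjusted p = 3.4e-07, edgeR). NDUFA13, an accessory subunit of complex I, had 28.2 CPM at the lowest, 40.2 at the median and 57.2 at the highest in the 14 terminal libraries, against 25.7, 32.3 and 52.6 CPM in the 12 transition libraries. The groups overlapped over most of their range, and the log2 change was 0.35 ± 0.10 (adjusted p = 0.0040, edgeR). ATP5PF and ATP5PB, subunits of the peripheral stalk that holds the F1 head still, both changed by 0.31 on the log2 scale (SE 0.07 and 0.06). COX8A changed by 0.31 ± 0.09, COX6C by 0.26 ± 0.06, UQCRC2, the second core subunit of complex III, by 0.22 ± 0.05, and UQCRH by 0.16 ± 0.06. The 2 that fell were NDUFS1, the largest core subunit of complex I (-0.19 ± 0.06), and NDUFB3 (-0.20 ± 0.08). The number that rose was 2 with 1 value per day, 16 without day 20, and 17 without any 1 of days 11 and 14 of E42 Posterior and days 6 and 7 of E77 Occipital. Over all tested genes 7.59% rose with 1 value per day and 20.3% without day 20. The first count thus lay below the share over all genes, and the second lay near it. With 1 value per day NDUFA13, ATP5PF, COX8A, COX6C, UQCRC2 and NDUFS1 did not pass. COX7B and UQCRH lost their calls with 1 value per day and without day 20, and NDUFB3 lost its call when any of 11 of the 26 libraries was left out.

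Over the whole course, 31 of the 69 genes were lower in the terminal than in the stem phase and 5 higher, against 30.4% of all tested genes lower and 31.9% higher. The median log2 change was -0.14 for the members and 0.00 for all genes tested. After correction for gene length 15 were lower and 12 higher, with a median of -0.03. Over all tested genes 31.8% were lower and 30.6% higher in that fit, with a median of -0.01. The members' falls then no longer exceeded the share over all genes. The genes that fell were 17 of complex I, 2 of complex II, 2 of complex III, 3 of complex IV and 7 of ATP synthase. Core and accessory subunits differed in their counts: 6 of the 7 nuclear-encoded core subunits of complex I fell and 0 rose (median log2 change -0.34), whereas 11 of the 29 accessory subunits fell and 3 rose (median -0.08). The F1 head of ATP synthase had 3 of 5 genes lower (median -0.31), and its other 13 genes 4 lower and 2 higher (median -0.14). These differences between subunit classes were not tested.

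UQCRC1, SDHA and ATP5F1A show the fall in every series. UQCRC1 had 55.2 CPM at the lowest, 70.9 at the median and 88.4 at the highest in the 14 terminal libraries, against 83.1, 102 and 116 CPM in the 12 stem libraries. Only E77 Occipital day 14 and E77 Frontal day 20 reached the range of the stem libraries, and the log2 change was -0.51 ± 0.06 (adjusted p = 7.5e-09, edgeR), 0.701-fold. SDHA had 40, 48.7 and 60.5 CPM in the terminal phase, against 55.4, 66.7 and 78.1 CPM in the stem phase, a log2 change of -0.42 ± 0.05 (adjusted p = 2.3e-08, edgeR). ATP5F1A had 357, 457 and 523 CPM, against 478, 618 and 720 CPM (log2 change -0.42 ± 0.05, adjusted p = 1.9e-08, edgeR). For both genes a few terminal libraries lay within the stem range. NDUFB3 had 3.47, 4.13 and 4.73 CPM in the terminal phase, against 4.56, 5.81 and 8.18 CPM in the stem phase (log2 change -0.53 ± 0.08). ATP5F1D (-0.51 ± 0.08), NDUFS8 (-0.48 ± 0.07), COX7C (-0.36 ± 0.08), UQCRQ (-0.34 ± 0.07), NDUFA4 (-0.29 ± 0.07) and SDHC (-0.23 ± 0.06) also fell on the log2 scale. SDHB (-0.11 ± 0.06, adjusted p = 0.14, edgeR) and SDHD (-0.15 ± 0.07, adjusted p = 0.063, edgeR) did not pass.

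NDUFA5 ran the other way. It had 45.2 CPM at the lowest, 51.2 at the median and 64.7 at the highest in the 14 terminal libraries, against 29.6, 36 and 44.9 CPM in the 12 stem libraries, and the groups did not overlap. The log2 change was 0.54 ± 0.06 (adjusted p = 1.6e-09, edgeR), 1.46-fold. Between transition and stem phases it did not pass (0.09 ± 0.06, adjusted p = 0.21, edgeR). Its highest libraries were the last ones: 60.1 CPM on day 20 in E77 Frontal, 64.7 CPM on day 20 in E77 Occipital and 57.1 CPM on day 17 in E42 Posterior, while E42 Anterior was highest on day 11, at 51.2 CPM. The other 4 that rose changed less: ATP5PF by 0.22 ± 0.07 on the log2 scale, ATP5PB by 0.19 ± 0.06, NDUFS4 by 0.16 ± 0.05 and NDUFC2 by 0.14 ± 0.05. NDUFS4 is an accessory subunit of the arm of complex I that binds NADH, and its loss in humans and mice causes a severe brain disease. With 1 value per day 1 member rose, without E42 Anterior day 5 the number was 2, and NDUFS4, ATP5PF and ATP5PB did not pass. ATP5PF also lost its call without E42 Anterior (0.13, adjusted p = 0.17, edgeR).

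**Figure D4:**
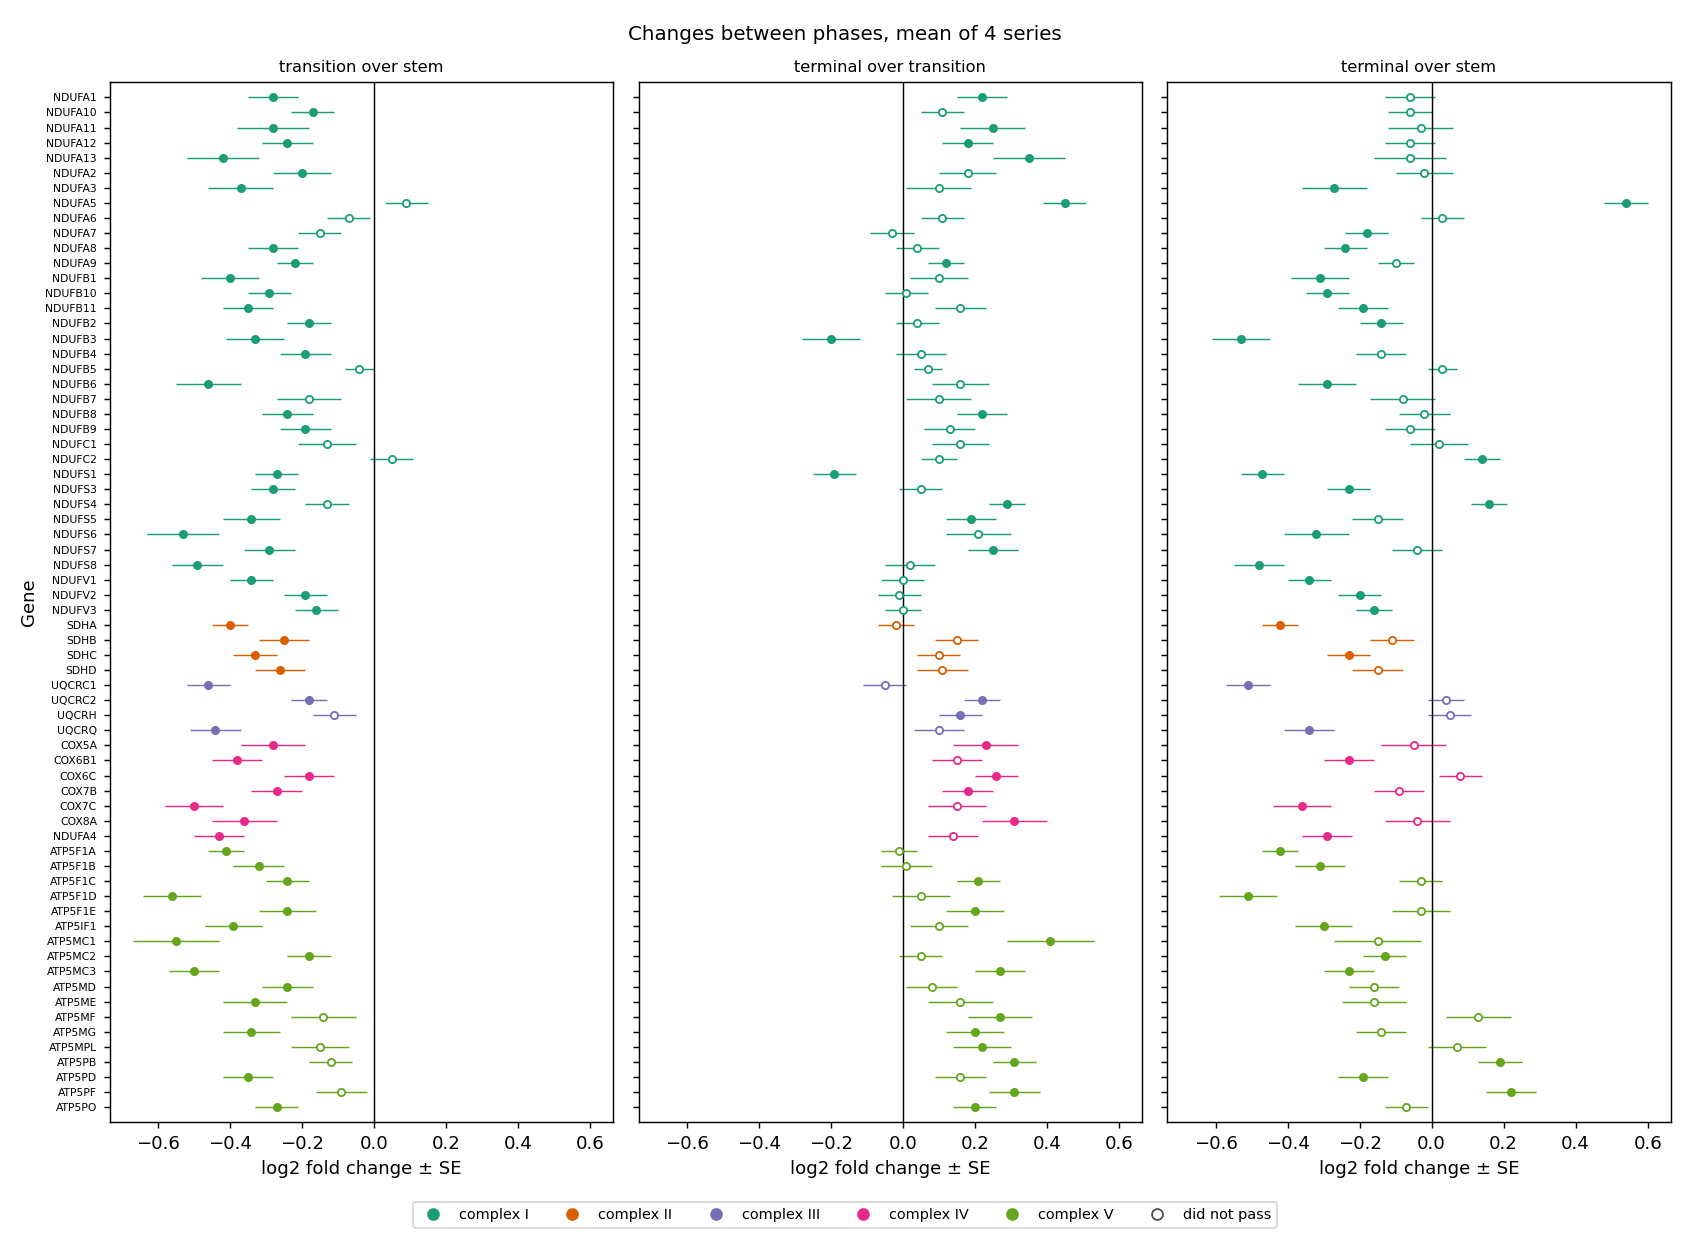
Log2 change ± SE of 68 of the 69 tested genes between phases, averaged over the 4 series: transition over stem, terminal over transition and terminal over stem, coloured by complex, with open points for genes that did not pass. Over all 69, the genes that passed are 56 lower in the first comparison, 26 higher and 2 lower in the second, and 31 lower and 5 higher, led by NDUFA5, in the third.

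The 4 series shared few of these calls. Between the terminal and the stem phase, E77 Frontal had 4 members higher and 8 lower (22.5% and 20.7% of all tested genes), E77 Occipital 3 higher and 12 lower (21.6% and 19.6%), E42 Anterior 3 higher and 8 lower (17.9% and 16.2%), and E42 Posterior 1 higher and 37 lower (21.5% and 17.8%). The median log2 change of the members was -0.03, -0.06, -0.10 and -0.35 in that order of series. Of the 38 members that fell in 1 series or more, 25 fell in E42 Posterior alone, and 64 of the 69 had their lowest fitted change there. The same counts were not made over all tested genes, so these cannot be set against a background. NDUFA5 rose in all 4 series, by 0.67 ± 0.11 in E77 Frontal, 0.58 ± 0.11 in E77 Occipital, 0.48 ± 0.12 in E42 Anterior and 0.43 ± 0.12 in E42 Posterior on the log2 scale. In E42 Posterior that call was lost when any of 3 of the 6 libraries was left out. Among the members that fell in all 4 were UQCRC1, SDHA, ATP5F1A and NDUFV1, a core subunit of complex I. In E77 Frontal the call of ATP5F1A was lost when any of 5 of the 7 libraries was left out. UQCRC1 changed by -0.45 ± 0.11, -0.41 ± 0.11, -0.52 ± 0.12 and -0.68 ± 0.12, and SDHA by -0.39 ± 0.10, -0.37 ± 0.10, -0.36 ± 0.11 and -0.58 ± 0.11, on the log2 scale in the same order. In E77 Frontal the rises of ATP5MF (0.48 ± 0.17) and NDUFS4 (0.31 ± 0.11) were lost without day 20. After correction for gene length 18 members rose and 5 fell in E77 Frontal, and 9 rose and 7 fell in E77 Occipital. Over all tested genes 23.6% rose and 20.4% fell in Frontal in that fit, and 21.9% and 19.7% in Occipital. With library totals 4 rose and 13 fell in E77 Frontal. The number that fell in E77 Frontal was 4 without day 1 and 5 without day 11, and the number that rose was 8, 7, 2 and 2 without days 11, 14, 20 and 3. In E77 Occipital 5 rose without day 11. In E42 Anterior the number that fell was 17 without day 5, 5 without day 1, and 4 without day 11 or day 17, and 1 rose without any 1 of days 1, 3, 5, 11 and 14.

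In E42 Posterior the falls took in every complex: 19 of 36 genes of complex I, 3 of 4 of complex II, 2 of 4 of complex III, 3 of 7 of complex IV and 10 of 18 of ATP synthase. ATP5F1D and NDUFB3 had the lowest log2 changes there, -0.84 ± 0.17 and -0.84 ± 0.16, and NDUFS6 (-0.75 ± 0.19), UQCRC1 and UQCRQ (-0.67 ± 0.14) also fell. ATP5F1D had 41.8, 44.3 and 42 CPM on days 11, 14 and 17, against 87.1, 74.9 and 66.7 CPM on days 1, 3 and 5. Cytoplasmic ribosomal protein genes fell in the same series and phases, 50 of 75, with a median log2 change of -0.44, and proliferation markers 12 of 12. Whether either has a part in the fall of the respiratory chain genes was not tested.

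Whether the change from stem to terminal phase differed between the E42 regions was tested as an interaction, a comparison added after the series were seen to differ. The fit was of group means, with no term for day, as for the other phase comparisons. The difference, E42 Anterior minus E42 Posterior, was positive for 67 of 69 members, with a median of 0.28 on the log2 scale against -0.01 over all genes tested, and 2 passed, NDUFB5 and NDUFA4, against 2.03% of all tested genes higher and 3.41% lower. NDUFA4 had 92.3, 90.0 and 87.4 CPM on days 11, 14 and 17 in E42 Anterior, against 90.6, 85.6 and 81.6 CPM on days 1, 3 and 5. In E42 Posterior it had 75.6, 72.1 and 70.8 CPM on days 11, 14 and 17, against 118, 115 and 102 CPM on days 1, 3 and 5. The change was near 0 in E42 Anterior (0.07 ± 0.15) and a fall in E42 Posterior (-0.62 ± 0.15), and the difference was 0.68 ± 0.21 (adjusted p = 0.049, edgeR). NDUFB5, an accessory subunit of the membrane arm of complex I, averaged 50.5 ± 5.64 CPM in the terminal and 44.5 ± 1.59 CPM in the stem phase of E42 Anterior, and 46.9 ± 3.80 CPM and 59.1 ± 0.792 CPM in E42 Posterior (SD, n = 3 each). The difference of the changes was 0.51 ± 0.12 (adjusted p = 0.0081, edgeR). With day as a block 6 members passed, NDUFB5 and NDUFA4 among them. NDUFA4 lost its call without 10 of the 12 libraries in turn and without day 1 of the stem phase. The interaction between the ages, E77 minus E42, was positive for 62 of 69 members, with a median of 0.21 against 0.01 over all genes, and 2 passed higher and 0 lower, against 9.46% and 9.95% of all tested genes. NDUFS4 changed by 0.31 ± 0.11 in E77 Frontal and 0.36 ± 0.11 in E77 Occipital, against -0.02 in Anterior and 0.00 in Posterior cultures of E42, and NDUFA9, a subunit near the ubiquinone site of complex I, by 0.03 and 0.10, against -0.26 and -0.28. The differences were 0.34 ± 0.11 for NDUFS4 and 0.33 ± 0.10 for NDUFA9 (adjusted p = 0.027 and 0.021, edgeR). Without E42 Anterior, as E77 Occipital minus E42 Posterior, they were 0.38 and 0.41 and did not pass (adjusted p = 0.18 and 0.11, edgeR). They did not pass without day 20 either. With day as a block both passed (0.26 ± 0.09 and 0.27 ± 0.08), 2 members passed in all and the median was 0.11. The number higher was 24 with length correction, 18 without E77 Frontal day 14 and 9 with the DESeq2 Wald test.

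Subunits with more than 1 gene were followed as sets. The genes ATP5MC1, ATP5MC2 and ATP5MC3 encode the same mature subunit c with different import sequences. Per length their mean levels were 39.9 RPKM for ATP5MC1, 45.2 for ATP5MC2 and 51.1 RPKM for ATP5MC3. ATP5MC2, the longest of the 3, drew the most counts (medians of 140, 126 and 126 CPM in the stem, transition and terminal phases). Between transition and stem phases it changed by -0.18 ± 0.06 on the log2 scale, against -0.50 ± 0.07 for ATP5MC3 and -0.55 ± 0.12 for ATP5MC1. Between terminal and transition phases ATP5MC1 rose by 0.41 ± 0.12 and ATP5MC3 by 0.27 ± 0.07, while ATP5MC2 did not pass (0.05 ± 0.06, adjusted p = 0.57, edgeR). Differences between the 3 genes were not tested, and reads may be shared among them. COX6B1, the widely expressed form of its subunit, had medians of 74.6, 55.7 and 63.1 CPM in the 3 phases, while COX6B2, known in humans as a testis form, had at most 12 counts in a library and 55 in all. COX7B had medians of 56, 46.2 and 51.5 CPM, and COX7B2 had 0 counts in all 38 libraries, which allows a level of up to 0.0563 to 0.147 CPM per library (3 counts, counting error only). COX6A2, known in mammals as the heart and muscle form, had at most 8 counts in a library, and the 9 striated muscle markers together reached 23.4 CPM at most.

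Age was compared within each phase with day in vitro as a block, and in the stem and transition phases the number of respiratory chain genes lower in the E77 cultures was above the share over all genes. In the stem phase 43 of 69 were lower and 0 higher (31.4% and 28.8% of all tested genes), in the transition phase 56 lower and 1 higher (31.1% and 25.7%), and in the terminal phase 20 lower and 1 higher (24.4% and 20.6%). The median log2 difference of the members was -0.24, -0.32 and -0.13, against -0.03, -0.04 and -0.02 over all genes tested. Without E42 Anterior, with E77 Occipital alone set against E42 Posterior, 31, 18 and 2 members were lower in the 3 phases. Over all tested genes 20.8%, 20.7% and 17.8% were lower there, so the transition count was then near the share over all genes. The median log2 difference in these fits, which rest on fewer libraries, was -0.29, -0.23 and -0.03 for the members. Over all genes tested it was -0.02, 0 and -0.01. Day 20 was sampled in E77 alone, so with the day block it adds nothing to the terminal age difference. The terminal CPM values given below for E77 do include day 20. Without the day block, where day 20 counts, 36, 49 and 6 members were lower. In the full comparison the terminal count lay near the share over all genes. The comparisons in the 3 phases rest on different libraries of the same cultures. In the terminal phase the number lower was 33 without E77 Occipital day 14, and 11 to 13 without E77 Frontal day 14, days 11 or 17 of E77 Occipital, or days 11 or 14 of E42 Posterior. In the stem phase the lower genes were 19 of complex I, 3 of complex II, all 4 of complex III, 4 of complex IV and 13 of ATP synthase. With library totals in place of the composition scaling, 5 were higher and 29 lower in the stem phase, and the median over all genes moved to 0.09.

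NDUFB4, an accessory subunit of the membrane arm of complex I, had the lowest difference in the stem phase. It had 55.3 CPM at the lowest, 62.9 at the median and 71.4 at the highest in the 6 E77 stem libraries, against 86.1, 92.6 and 93.3 CPM in the 6 E42 stem libraries, with no overlap (log2 difference -0.54 ± 0.09, adjusted p = 2.6e-05, edgeR). COX6C had 59.9, 70.6 and 84.6 CPM in E77, against 94.8, 100 and 104 CPM in E42, again with no overlap (-0.50 ± 0.08, adjusted p = 7.9e-06, edgeR). NDUFS4 had 20.3, 22.0 and 23.5 CPM in E77, against 29.2, 30.8 and 36 CPM in E42 (-0.52 ± 0.07, adjusted p = 3.2e-07, edgeR), and these groups did not overlap either. ATP5F1C, the gamma subunit that turns within the F1 head, had 59.9, 70.6 and 84.8 CPM in E77, against 84.5, 96.1 and 115 CPM in E42, overlapping by 1 library (-0.48 ± 0.07). NDUFB9 (-0.53 ± 0.09), ATP5MC3 (-0.45 ± 0.06), COX5A (-0.44 ± 0.09), SDHB and UQCRH (both -0.39, SE 0.07 and 0.08), SDHC (-0.33 ± 0.07), UQCRC2 (-0.19 ± 0.06) and SDHA (-0.17 ± 0.06) were also lower on the log2 scale. Without E42 Anterior 31 members were lower in the stem phase, with a median of -0.29, and SDHA did not pass (-0.13, adjusted p = 0.29, edgeR).

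In the transition phase NDUFB4 (-0.59 ± 0.09) and COX6C (-0.55 ± 0.08) had the lowest log2 differences. COX6C had 55.1, 58.9 and 69.1 CPM in the 6 E77 libraries, against 77.8, 88.8 and 108 CPM in the 6 E42 libraries, with no overlap. Without E42 Anterior 18 of 69 members were lower, near the 20.7% of all tested genes, with a median of -0.23 against 0 over all genes. NDUFB4 (-0.50) and COX6C (-0.35) passed in that fit. In the terminal phase COX7B (-0.39 ± 0.09), NDUFB9 and COX6C (both -0.35, SE 0.09 and 0.08), NDUFA8 (-0.33 ± 0.08), ATP5PD and UQCRH (both -0.31, SE 0.07 and 0.08) and ATP5F1C (-0.29 ± 0.07) were lower. Without E42 Anterior 2 members were lower there, the median was -0.03, and none of these 7 passed. The terminal level of COX6C was 80.5 ± 14 CPM in E77 Frontal and 81.0 ± 13.3 CPM in E77 Occipital (SD, n = 4 each), against 118 ± 4.75 CPM in E42 Anterior and 79.2 ± 10.5 CPM in E42 Posterior (SD, n = 3 each). The E42 Anterior libraries alone were high, and in E77 Occipital against E42 Posterior the difference was -0.04 (adjusted p = 0.85, edgeR).

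SDHD was the only member called higher in E77 in the transition and terminal phases. It had 8.71 CPM at the lowest, 11.4 at the median and 13.3 at the highest in the 8 E77 terminal libraries, against 7.89, 8.59 and 10.2 CPM in the 6 E42 terminal libraries. E77 Occipital day 14, at 8.71 CPM, was the 1 low library among them, and the log2 difference was 0.36 ± 0.10 (adjusted p = 0.0030, edgeR). It was 0.26 ± 0.10 in the transition phase (adjusted p = 0.025, edgeR), a call lost without any 1 of 4 of the 12 libraries, and 0.17 ± 0.10 in the stem phase, where it did not pass (adjusted p = 0.13, edgeR). Without E42 Anterior the terminal difference was again 0.36 (adjusted p = 0.043, edgeR) and the transition difference 0.28 (adjusted p = 0.11, edgeR). Its partners in complex II did not share this: SDHA, SDHB and SDHC had terminal log2 differences of -0.13 ± 0.06, -0.16 ± 0.07 and -0.15 ± 0.07, none of which passed.

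**Figure D5:**
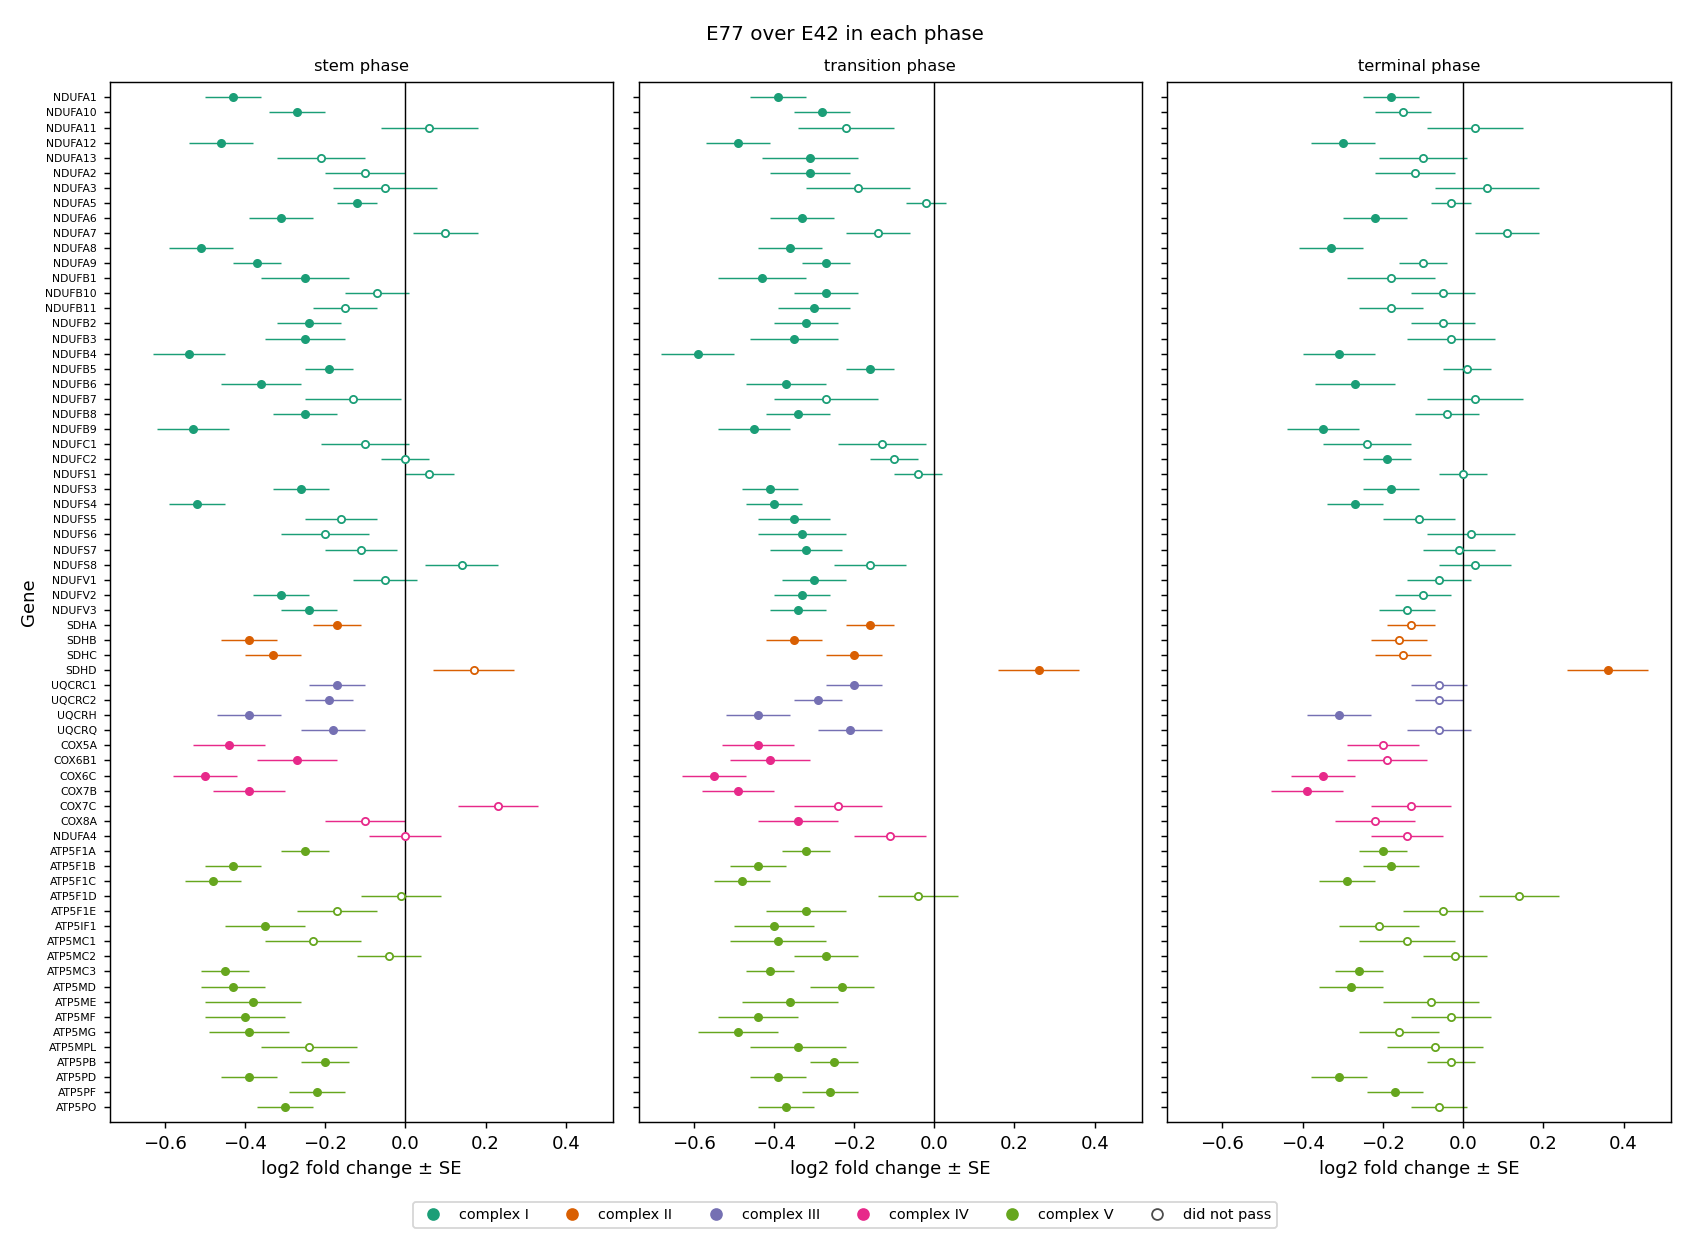
Log2 difference ± SE of 68 of the 69 tested genes between E77 and E42 cultures (E77 over E42) in the stem, transition and terminal phases, coloured by complex, with open points for genes that did not pass. Over all 69, 43, 56 and 20 genes are lower in E77 in the 3 phases, and SDHD stands to the right of 0 in all of them.

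Markers of other cell types moved with age as well. In the stem phase 6 of 8 astrocyte markers were higher in E77 and 0 lower, with a summed level of 2490 to 7020 CPM in E77 and 702 to 3190 CPM in E42. Neuron markers were lower, 9 of 12, with sums of 2000 to 2800 CPM in E77 and 1550 to 3380 CPM in E42. Mesenchymal markers were lower, 9 of 10, with sums of 93.5 to 253 CPM in E77 and 150 to 40000 CPM in E42. Their part in the age differences of the respiratory chain genes was not tested, apart from the values without E42 Anterior above.

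Between regions of the same age, with days as a block, differences were small. In E77, Frontal against Occipital, 0 of 69 members were higher and 1 lower (16.3% and 13.8% of all tested genes). The 1 gene was NDUFA5, lower in Frontal on 9 of the 10 days and higher on day 14 (log2 difference -0.19 ± 0.04, adjusted p = 0.00056, edgeR). In E42, Anterior against Posterior, 15 were higher and 3 lower (25.1% and 30.3% of all tested genes), with a median of 0.06 for the members and -0.06 over all genes. The number higher was 9 without E42 Anterior day 6 and 25 without E42 Posterior day 11. The split depended on the scaling. With library totals 4 were higher and 19 lower, the median over all genes moved to -0.16 and that of the members to -0.04, so only genes that passed in the same direction in both fits are given here. COX6C was higher in Anterior on all 9 days in CPM, nearly equal on day 3, and on 6 of 9 days in RPKM, which scales by library totals, with 94.9 CPM at the lowest, 104 at the median and 123 at the highest, against 67.8, 82.8 and 100 CPM in Posterior (0.32 ± 0.06, adjusted p = 0.00019, edgeR). NDUFA13 had 39.5, 51.1 and 55.6 CPM in Anterior, against 28.5, 37.5 and 57.2 CPM in Posterior, higher on 8 of 9 days (0.35 ± 0.09, adjusted p = 0.0024, edgeR). SDHA had 53.0, 59.9 and 78.1 CPM in Anterior, against 43.6, 49.4 and 72.7 CPM in Posterior, higher on all 9 days in CPM and on 7 in RPKM (0.22 ± 0.05, adjusted p = 0.00049, edgeR). NDUFC2, an accessory subunit of the membrane arm of complex I, had 52.2, 60.6 and 70.7 CPM in Anterior, against 62.2, 73.1 and 84.2 CPM in Posterior, lower on all 9 days (-0.28 ± 0.05, adjusted p = 3.6e-05, edgeR). With library totals these 4 log2 differences were 0.21, 0.25, 0.11 and -0.38, and all passed. In the same comparison 62 of 75 cytoplasmic ribosomal protein genes and 10 of 10 mesenchymal markers were higher in Anterior.

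The wider pathway was described with lists of genes around the respiratory chain. Among 14 tested electron carriers and related proteins outside the symbol rule, 2 rose and 8 fell between transition and stem phases. Over all tested genes 21.6% rose and 20% fell. Cytochrome c1 of complex III, CYC1, changed by -0.54 ± 0.07, and between terminal and transition phases cytochrome c, CYCS, rose by 0.30 ± 0.09 on the log2 scale. NDUFA4L2, a paralogue of NDUFA4 known in human and mouse cells to be induced by low oxygen, moved unlike NDUFA4. It averaged 4.66 ± 2.17 CPM in the terminal and 19.6 ± 10.6 CPM in the stem phase of E42 Anterior, and 9.58 ± 0.770 CPM and 0.943 ± 0.401 CPM in E42 Posterior (SD, n = 3 each), log2 changes of -2.07 ± 0.51 and 3.34 ± 0.56. It also rose in the E77 series, where it stayed at or under 1.68 CPM in every library, by 2.83 ± 0.73 in Frontal and 3.56 ± 0.78 in Occipital, so that E42 Anterior alone fell. Its E77 stem means were 0.165 CPM in Frontal and 0.0998 CPM in Occipital, near the level of 3 counts. The size of the E77 changes is therefore uncertain. Of 16 assembly factors for complex I, 6 rose and 6 fell between terminal and stem phases, with NDUFAF4 at 0.61 ± 0.08, NDUFAF6 at 0.44 ± 0.07 and NDUFAF5 at 0.42 ± 0.07. Of 22 tested for complexes II to IV, 6 rose and 5 fell. Both lists lay near the shares over all genes in that comparison, 31.9% higher and 30.4% lower.

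Among other mitochondrial genes, 0 of 78 mitochondrial ribosomal protein genes rose and 55 fell between transition and stem phases, with a median log2 change of -0.26. Between terminal and transition phases 23 rose and 1 fell. Over all tested genes 21.6% rose and 20% fell in the first comparison, and 22.7% and 19.2% in the second. Of 27 genes for import and cristae, 0 rose and 19 fell between transition and stem phases, led by the prohibitin PHB (-0.64 ± 0.09) and the ADP/ATP carrier SLC25A5 (-0.60 ± 0.06). Cytoplasmic ribosomal protein genes gave similar counts, 0 higher and 67 lower of 75, with a median of -0.31. In the stem phase 4 were higher and 56 lower in E77, against 28.8% and 31.4% of all tested genes. The members are short genes, with a median length of 765 bases against 2913 over all genes tested, and so are the ribosomal protein genes (739 bases). After correction for gene length, 1 member rose and 40 fell between transition and stem phases, and the median log2 change was -0.18. Over all tested genes 18.4% rose and 22.5% fell in that fit, with a median of -0.02. Whether the similarity to the ribosomal protein genes has a shared source was not tested.

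Glycolysis supplies pyruvate to the mitochondrion. Between terminal and stem phases 30.4% of all tested genes fell and 31.9% rose. Of 21 glycolytic genes, 18 fell and 2 rose between these phases, with a median log2 change of -0.52, and the neuronal enolase ENO2 rose by 1.75 ± 0.12. In the tricarboxylic acid cycle, which supplies NADH and succinate, 16 of 27 genes fell and 4 rose, with a median of -0.16. Pyruvate dehydrogenase kinase PDK4, which restrains entry into that cycle, rose between transition and stem phases (2.23 ± 0.43) and fell between terminal and transition phases (-3.36 ± 0.45). Of 24 regulators of mitochondrial biogenesis, 6 rose and 7 fell between terminal and stem phases, among them the coactivator PPARGC1B (1.32 ± 0.20) and the mitochondrial DNA polymerase POLG (-0.43 ± 0.07), shares that did not exceed those over all genes. The mitochondrially encoded subunits took 0.00839 to 0.0351% of counts, with a median of 0.0184%, against 0.384% for the nuclear-encoded members. How reads from mitochondrial DNA were mapped and counted is not given in the sources used here. Changes in these few reads may therefore not follow the mitochondrial transcripts. Of 12 tested, 1 rose and 7 fell between terminal and stem phases. In the stem phase 7 were higher and 2 lower in E77, against 28.8% and 31.4% of all tested genes. With that limit they cannot be set against the nuclear-encoded members, of which 0 were higher.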

How the data were processed

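The measurements were poly(A) RNA-seq read counts per gene and RPKM values for the same 38 libraries, both deposited by the authors. Per the submitters' processing notes, STAR and featureCounts were used, and their versions, the genome build and the annotation are not given in the sources used here. RPKM was used for levels between genes. The deposited counts were tested with edgeR 4.0.16 (R 4.3.3): TMM scaling, filterByExpr and quasi-likelihood F tests, with Benjamini-Hochberg adjusted p under 0.05 over the 20794 genes tested. Days of a phase served as replicates. Phase comparisons used group means (26 residual degrees of freedom). For age and region the day was a block in the fit (19), and day 5 against day 1 used series and day (25). Day 20 was in E77 only, so with the block it does not enter differences between ages.

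Days pair libraries because each day marks the same time in culture, and 44 of 55 same-day pairs of libraries deviated from their group means with a correlation over 0.1 (median 0.22). All 703 pairs of libraries differed by more than counting noise. Log2 CPM values used a prior count of 2. Alternatives were DESeq2 1.42.0, limma 3.58.1 on log2(RPKM + 1) or log2(RPKM + 0.1) for genes at 1 RPKM or more in 3 libraries or more, library totals, no filter, correction of log2 counts for gene length by a lowess curve (span 0.3), 1 value per day, fits of only the libraries compared, and libraries, days or E42 Anterior left out. Fits without 1 library kept the dispersion trend of the full fit. Age comparisons without E42 Anterior were of E77 Occipital against E42 Posterior. The scripts were tested on simulated data. Intervals and floors cover counting error only.

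In each comparison the text names, within each complex, up to 2 passing genes with the largest rise and 2 with the largest fall, all complex II genes and sets of paralogues, and up to 3 passing genes of each pathway list. NDUFS4 in the stem phase, and genes named for calls in all 4 series, lie outside that rule. Values of 1 member are not reported here. Members and lists were chosen with earlier results of these data known.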

Additional observations from a re-analysis of the deposited data

Results flagged for a closer look

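In E77 Frontal, day 20 stood above the other terminal libraries for ATP5F1C, the gamma subunit of ATP synthase, at 93.8 CPM, against 68.7, 69.7 and 70.7 CPM on the other terminal days. The same library was high for NDUFA12, an accessory subunit of complex I, at 29.9 CPM, against 21.8, 22.8 and 22.9 CPM. In E77 Occipital, day 11 was low for NDUFC1, at 5.16 CPM, against 6.28, 6.29 and 6.31 CPM, and day 14 was low for COX7C, at 19.8 CPM, against 22, 22.2 and 22.4 CPM. These 4 gaps passed Dixon's test among 140 sets of 4 libraries, of which chance alone passes about 1 in 20.

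The change between terminal and stem phases differed between ages, E77 minus E42, for NDUFS4 by 0.34 ± 0.11 (SE, adjusted p = 0.027, edgeR) and for NDUFA9 by 0.33 ± 0.10 (adjusted p = 0.021, edgeR) on the log2 scale. It differed between the E42 regions, Anterior minus Posterior, for NDUFB5 by 0.51 ± 0.12 (adjusted p = 0.0081, edgeR) and for NDUFA4 by 0.68 ± 0.21 (adjusted p = 0.049, edgeR).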

How the results depend on the processing

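No result named in the text changed direction between calls under any setting tried, and values that passed in neither fit were not read for direction. Of 256 single-gene results, 149 passed. Over all of them, settings other than a left-out library gave 2339 values with the same call, 184 that lost it and 64 that gained one, and left-out libraries gave 3575, 156 and 69. The counts of members that moved by over 1.5 times follow, each cause not tested. Terminal over stem phase, mean of 4 series: 5 higher became 1 with 1 value per day, 12 with length correction, 2 with no low-count filter, 3 without stem day 1 and 3 without E42 Anterior, and 31 lower became 15 with length correction. For the same phases in E42 Anterior, 3 higher became 1 with no filter and 1 without stem day 1, and 8 lower became 5 without stem day 1. In E77 Frontal, 4 higher became 18 with length correction, 1 with only the libraries compared, 2 without stem day 1 and 2 without day 20, and 8 lower became 5 with length correction, 13 with library totals, 15 with limma at either pseudocount and 5 without stem day 1. In E77 Occipital, 3 higher became 9 with length correction and 1 with only the libraries compared, and 12 lower became 7, 5 and, without stem day 1, 6. Between transition and stem phases, 0 higher became 1 with length correction and 56 lower became 32 with 1 value per day. Between terminal and transition phases, 26 higher became 2 with 1 value per day and 16 with library totals, with limma at either pseudocount and without day 20, and 2 lower became 0 with 1 value per day and 1 with length correction, with no filter and without E42 Anterior. Over all tested genes 7.59% were higher there with 1 value per day, 17.4% with library totals and 20.3% without day 20. For E77 over E42, 0 higher in the stem phase became 5 with library totals and with limma at either pseudocount. In the transition phase 56 lower became 18 without E42 Anterior. In the terminal phase 20 lower became 35 with length correction, 12 with only the libraries compared and 2 without E42 Anterior. The age difference of the change, 2 higher, became 6 with DESeq2 size factors, 9 with the DESeq2 Wald test, 24 with length correction, 0 with library totals, 0 with limma at a pseudocount of 0.1 and 1 at 1, 5 with only the libraries compared, 5 without stem day 1, 0 without day 20 and 0 without E42 Anterior. The E42 region difference of the change, 2 higher, became 1 with length correction, with no filter and without stem day 1, and 5 with library totals, with limma at either pseudocount and with only the libraries compared. For E42 Anterior over Posterior, 15 higher became 4 with library totals and with limma, and 30 with only the libraries compared, and 3 lower became 19 with library totals, 21 with limma and 1 with no filter. For E77 Frontal over Occipital, 0 higher became 1 with library totals and with limma, and 1 lower became 9 with length correction. Between day 5 and day 1, 0 higher became 1 with length correction, and 9 lower became 14 with limma and 1 with only the libraries compared.

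Without the day block, 0 members were higher and 36 lower in E77 in the stem phase, 1 and 49 in the transition phase, and 1 and 6 in the terminal phase. For the regions without the block, the counts in E42 Anterior were 8 higher and 2 lower, and those in E77 Frontal were 0 and 1. With the day block added after the data were seen, the E42 region difference of the change gave 6 higher and the age difference 2.

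With each library left out in turn, the number higher and the number lower ranged as follows. Between terminal and stem phases they were 2 to 5 and 29 to 39 for the mean of 4 series, 1 to 3 and 4 to 17 in E42 Anterior, 0 to 1 and 30 to 49 in E42 Posterior, 2 to 8 and 4 to 11 in E77 Frontal, and 2 to 5 and 8 to 15 in E77 Occipital. They were 0 to 0 and 53 to 60 between transition and stem phases, and 17 to 37 and 1 to 2 between terminal and transition phases. For E77 over E42 they were 0 to 1 and 38 to 47 in the stem phase, 0 to 1 and 48 to 59 in the transition phase, and 1 to 2 and 11 to 33 in the terminal phase. The age difference of the change gave 2 to 18 and 0 to 0, with 18 without E77 Frontal day 14, and the E42 region difference 1 to 2 and 0 to 0. The regions gave 9 to 25 and 1 to 4 in E42, and 0 to 2 and 1 to 3 in E77. Day 5 against day 1 gave 0 to 1 and 2 to 12. Only 1 library per series and day limits what these tests can tell.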
